A study of Mus musculus with 20 samples.

Results

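Iron uptake, storage and sensing in the kidney was followed through 10 genes, taken by symbol from a count table of 55822 genes: the uptake genes Tfrc and Slc11a2, the ferritin genes Fth1 and Ftl1, the exporter Slc40a1, the sensors Ireb2, Aco1 and Fbxl5, the heme-degrading enzyme Hmox1 and the hormone gene Hamp. All 10 symbols were found. Puberulic acid is a tropolone, a class of compounds known to bind iron. The mice were 8-week-old males of the inbred strain C57BL/6J, given PBS (control) or 1 mg puberulic acid per day, in 6 daily doses, with kidney tissue taken on day 7. Gavage and injection into the peritoneum are both named for the study as a whole. Both groups had 5 samples of poly(A) RNA. Other mice received 1000 mg per day of the supplement Choleste-Help, from a normal or a toxic batch. The 10 columns that hold them do not show by name which batch is which, and they are not analysed here.

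Cells take up transferrin-bound iron through the transferrin receptor and store it in ferritin, a shell of heavy and light chains, and ferroportin exports it. When iron is scarce, the iron regulatory proteins encoded by Aco1 and Ireb2 bind a hairpin, the iron-responsive element, in messenger RNAs. In the 3′ end of the Tfrc messenger this binding protects the RNA from decay, while in the 5′ end of the ferritin and ferroportin messengers it blocks translation, which RNA levels do not show. Hepcidin, the product of Hamp, is a liver hormone that removes ferroportin from the cell surface. In the kidney, proximal tubule cells reclaim filtered transferrin and other iron carriers.

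The hairpins are shown because they set apart the messengers whose level the iron regulatory proteins act on from those whose translation they act on. The search asked for an unpaired C, 5 bases, the loop CAGTGN and 5 bases pairing with the first 5, plus at least 4 of 5 pairs in the stem below, read on the sense strand of the reference transcripts (GENCODE M21, GRCm38). Such a site was in the 5′ UTR of 0.0298% of genes with a long enough 5′ UTR and in the 3′ UTR of 0.048% of genes with a long enough 3′ UTR. Of the 10 iron genes, 3 had it in the 5′ UTR and 1, Tfrc, had 4 of them in the 3′ UTR. Positions count from the start of the transcript, the loops are in capitals, and these letters were not found in this arrangement in the other 6 genes. The rule is strict: an element with a bulge or mismatch in the upper stem would be missed. The other 6 genes, Slc11a2 among them, may therefore still hold such an element.
Fth1 5′ UTR, bases 88 to 114: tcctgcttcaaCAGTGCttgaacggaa
Ftl1 5′ UTR, bases 79 to 105: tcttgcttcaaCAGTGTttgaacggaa
Slc40a1 5′ UTR, bases 91 to 117: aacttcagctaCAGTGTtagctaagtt
Tfrc 3′ UTR, bases 3316 to 3342: attatcggaagCAGTGCcttccataat
Tfrc 3′ UTR, bases 3695 to 3721: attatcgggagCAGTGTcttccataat
Tfrc 3′ UTR, bases 3760 to 3786: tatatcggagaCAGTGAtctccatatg
Tfrc 3′ UTR, bases 3807 to 3833: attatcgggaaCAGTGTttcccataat

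Libraries held 18409877 to 24705587 estimated counts. The puberulic acid kidneys differed broadly: 10622 of 16266 genes tested, or 65.3%, were called by the quasi-likelihood test of edgeR (Benjamini-Hochberg adjusted p under 0.05, over all genes). The share called higher was 34.2% and the share called lower was 31.1%, which are the backgrounds for the counts of calls in every list below. Levels are CPM, the count relative to library size. Library sizes carried TMM factors (the trimmed mean of M-values), which put the median log2 fold change of all genes tested at 0.05. Scaling to total counts put it at 0.56, so a direction that depends on this choice is named below. Kidney injury genes rose in all 6 cases on a list of 6. In bulk tissue, fewer cells of a type and less RNA per cell cannot be told apart. The labels do not say that each sample is a separate animal, so p-values measure only the spread between these samples.

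Of the 10 iron genes, 9 passed the filter on low counts and were tested: 2 were called higher (Hmox1 and Slc40a1), 4 lower (Aco1, Slc11a2, Ireb2 and Fth1) and 3 were not called (Tfrc, Ftl1 and Fbxl5). The calls in either direction, 6 of 9, are close to the background of 65.3%. With total-count scaling, 3 were called higher and 1 lower, where 56.4% and 15.5% of all genes tested were. Control and treated ranges were apart for 4 of the 9, against 50.1% of all genes tested. The median log2 fold change of the 9 was -0.31 with TMM and 0.19 with total counts.

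**Figure D1:**
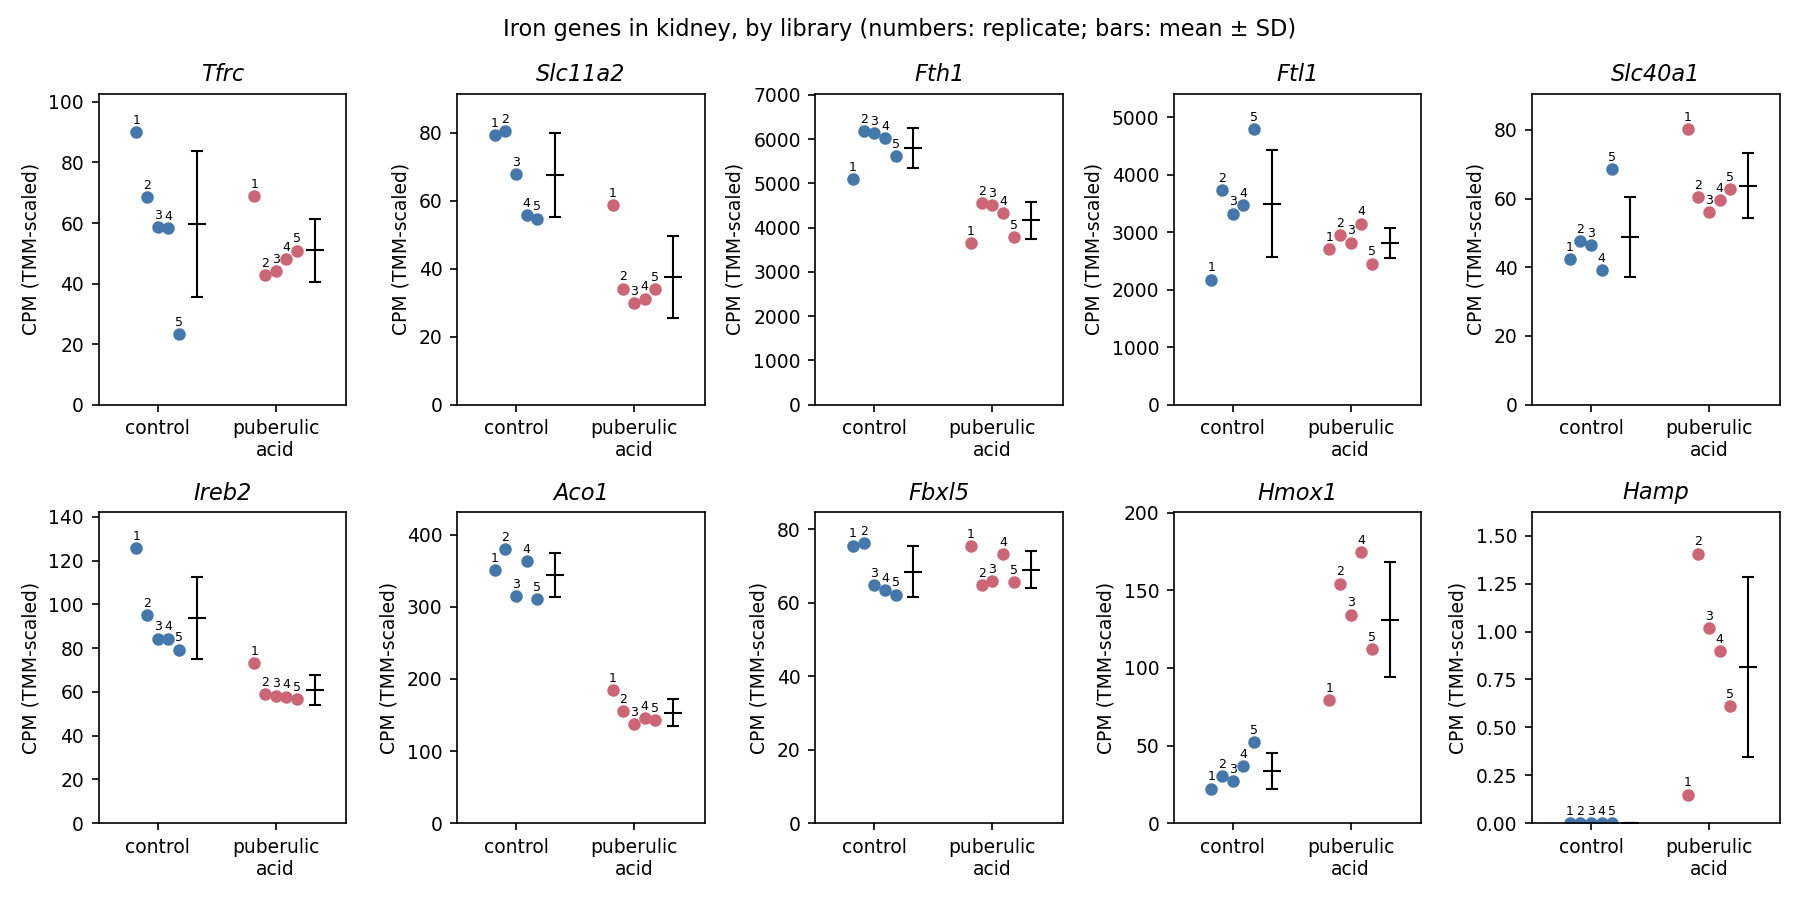
CPM (vertical axis, linear, from 0) of each iron gene in the 5 control and 5 puberulic acid libraries, with replicate numbers and mean ± SD. The groups do not overlap for Fth1, Ireb2, Aco1, Hmox1 and Hamp, and control replicate 5 stands low for Tfrc and high for Ftl1, Slc40a1 and Hmox1.

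Of the uptake genes, Slc11a2 was called lower and Tfrc was not called, and the difference between them was not tested. Tfrc (ENSMUSG00000022797), the transferrin receptor, was at 90.1, 68.4, 58.7, 58.2 and 23.2 CPM in control replicates 1 to 5 and at 68.9, 42.8, 44.1, 48.0 and 50.9 CPM in puberulic acid replicates 1 to 5. The groups overlapped, and control replicate 5 was the lowest of the 10 libraries. The log2 fold change was -0.23 ± 0.28 (SE, edgeR adjusted p = 0.48), and 0.28 with total-count scaling, so no change was detected and the sign followed the scaling. Without control replicate 5 Tfrc was called lower (-0.45, edgeR adjusted p = 0.0395), without control replicate 1 it was at -0.05 (edgeR adjusted p = 0.888), and over all alternatives its adjusted p ran from 0.00265 to 0.888.

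Tfrc is also known as a gene of dividing cells, and all 12 proliferation genes on a list were called higher. Their summed CPM went from 78.7 to 90.9 in controls to 247 to 603 with puberulic acid. Their part in the Tfrc level was not tested.

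Slc11a2 (ENSMUSG00000023030) encodes DMT1, which carries ferrous iron out of endosomes. It was at 79.3, 80.5, 67.8, 55.7 and 54.7 CPM in controls and at 58.8, 34.1, 29.8, 31.2 and 34.1 CPM with puberulic acid. Puberulic acid replicate 1 lay inside the control range and the other 4 lay below it. Slc11a2 fell by 0.85 ± 0.19 on the log2 scale (SE, edgeR adjusted p = 0.00213). With total-count scaling the value was -0.34 (edgeR adjusted p = 0.126), which is no longer called but is below the median gene under that scaling.

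Ferritin messengers were the most abundant of the set by far. Fth1 (ENSMUSG00000024661), the heavy chain with ferroxidase activity, was at 5092, 6173, 6127, 6016 and 5609 CPM in controls and at 3654, 4550, 4502, 4332 and 3780 CPM with puberulic acid. All 5 treated libraries were below all 5 controls. Fth1 fell by 0.48 ± 0.10 on the log2 scale (SE, edgeR adjusted p = 0.00148) with TMM, while its value was 0.03 with total counts (edgeR adjusted p = 0.81), so the fall is relative to the typical gene and not to the whole library.

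Ftl1 (ENSMUSG00000050708), the light chain, was at 2176, 3728, 3322, 3473 and 4791 CPM in controls and at 2705, 2950, 2816, 3151 and 2455 CPM with puberulic acid. The treated libraries lay within the control range, which was set at both ends by replicates 1 and 5. The log2 fold change was -0.31 ± 0.17 (SE, edgeR adjusted p = 0.131), and 0.19 with total counts. Leaving out control replicate 1 gave -0.45 (edgeR adjusted p = 0.00831), which was then called, and leaving out control replicate 5 gave -0.19 (edgeR adjusted p = 0.311).

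Ferritin genes have near-identical copies in the genome, and how reads were divided among them is not stated. Of the copies listed, Ftl1-ps1 held the most, at 26.1 to 52.3 CPM in controls and 21.4 to 43.2 CPM with puberulic acid, and adding the copies changed no call of a member.

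Slc40a1 (ENSMUSG00000025993), ferroportin, was at 42.3, 47.7, 46.4, 39.1 and 68.6 CPM in controls and at 80.2, 60.5, 56.0, 59.5 and 62.8 CPM with puberulic acid. Control replicate 5 lay inside the treated range and the other 4 controls below it. Slc40a1 rose by a log2 fold change of 0.39 ± 0.15 (SE, edgeR adjusted p = 0.0412). This call is narrow: it was lost in 8 of the 10 fits that left out 1 library, with values from 0.27 to 0.53, and over all alternatives its adjusted p ran from 0.000218 to 0.127. With total counts the value was 0.90.

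Of the sensors, Aco1 and Ireb2 were called lower and Fbxl5 was not called. Aco1 (ENSMUSG00000028405) encodes iron regulatory protein 1, which is an aconitase when it holds an iron-sulfur cluster. It was at 351, 380, 315, 363 and 310 CPM in controls and at 184, 155, 137, 146 and 143 CPM with puberulic acid, with a wide gap between the groups. Aco1 was 2.25-fold lower (log2 fold change -1.17 ± 0.10, SE, edgeR adjusted p = 1.27e-06), and it was lower and called in every alternative run, including total-count scaling (-0.66).

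Ireb2 (ENSMUSG00000032293) encodes iron regulatory protein 2, which is regulated by degradation. It was at 126, 95.1, 84.4, 84.4 and 79.2 CPM in controls and at 73.1, 58.8, 58.3, 57.7 and 56.6 CPM with puberulic acid. The groups did not overlap, although puberulic acid replicate 1 was close to the lowest control. Ireb2 was 1.54-fold lower (log2 fold change -0.62 ± 0.13, SE, edgeR adjusted p = 0.00119), but -0.11 with total counts (edgeR adjusted p = 0.436).

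Fbxl5 (ENSMUSG00000039753), the iron-binding subunit of the ubiquitin ligase that degrades iron regulatory protein 2, was at 75.6, 76.2, 64.7, 63.4 and 62.1 CPM in controls and at 75.4, 64.8, 65.9, 73.2 and 65.6 CPM with puberulic acid. The ranges overlapped almost fully, with a log2 fold change of 0.01 ± 0.09 (SE, edgeR adjusted p = 0.919). With total counts it was 0.52 (edgeR adjusted p = 0.000141), close to the median gene under that scaling.

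**Figure D2:**
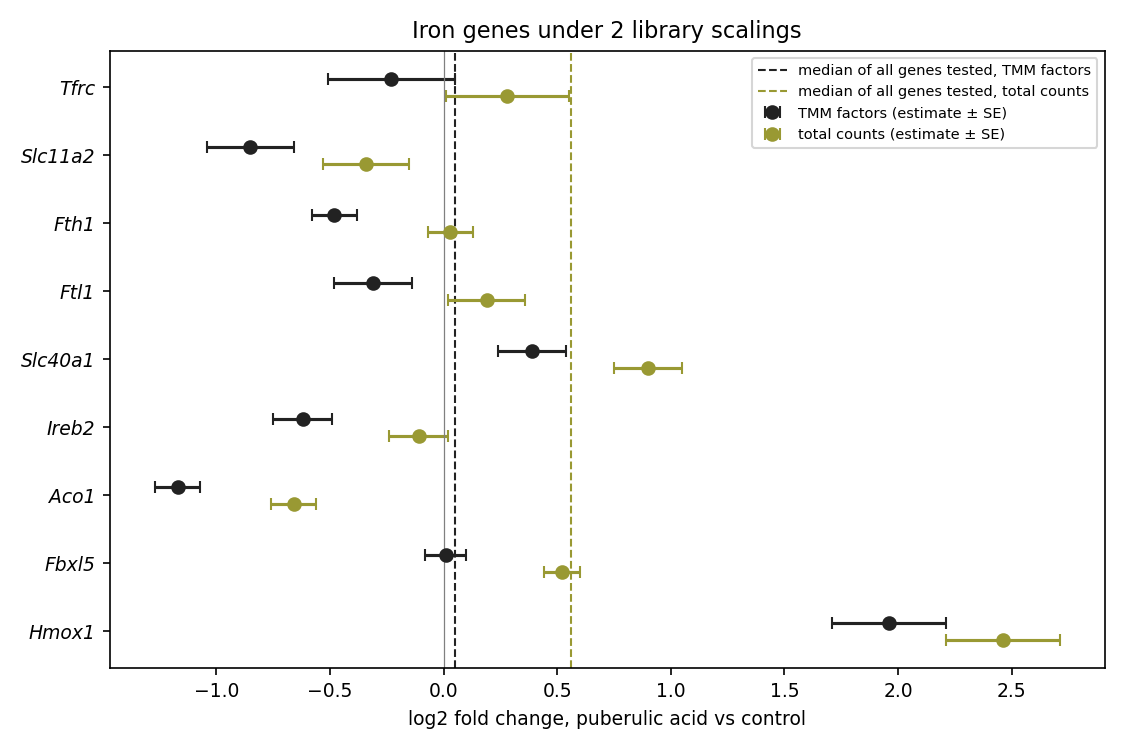
Log2 fold change (horizontal axis, estimate ± SE) of the 9 tested iron genes under TMM and total-count scaling, and the median of all genes tested under each (dashed lines, 0.05 and 0.56). Aco1 lies below 0 and Hmox1 above 0 under both scalings, while Fth1 moves from -0.48 to 0.03.

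A ratio of 2 genes within a library does not depend on library scaling. For 3 such log2 ratios the group difference was set against every assignment of 5 libraries against 5 (exact permutation test, two-sided, smallest possible p = 0.00794). The ratio of Ireb2 to Aco1 was -1.48, -2.0, -1.90, -2.11 and -1.97 in controls and -1.33, -1.40, -1.23, -1.34 and -1.34 with puberulic acid. All 5 treated libraries were higher, by 0.56 on the log2 scale (exact permutation, adjusted p = 0.0238), which shows unequal change of the 2 genes.

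The ratio of Fth1 to Ftl1 was 0.77 ± 0.36 in controls and 0.56 ± 0.11 with puberulic acid (mean ± SD, 5 libraries per group, exact permutation, adjusted p = 0.405). The controls spanned 0.23 to 1.23, from replicate 5 to replicate 1, and enclosed all treated libraries. Without control replicate 5 the difference was -0.34 (exact permutation, adjusted p = 0.0238). The ratio of Tfrc to Fth1 was -6.73 ± 0.76 in controls and -6.37 ± 0.41 with puberulic acid (mean ± SD, 5 libraries per group, exact permutation, adjusted p = 0.405), again with overlapping ranges. This difference of 0.36 was 0.06 without control replicate 5 and 0.58 without control replicate 1.

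**Figure D3:**
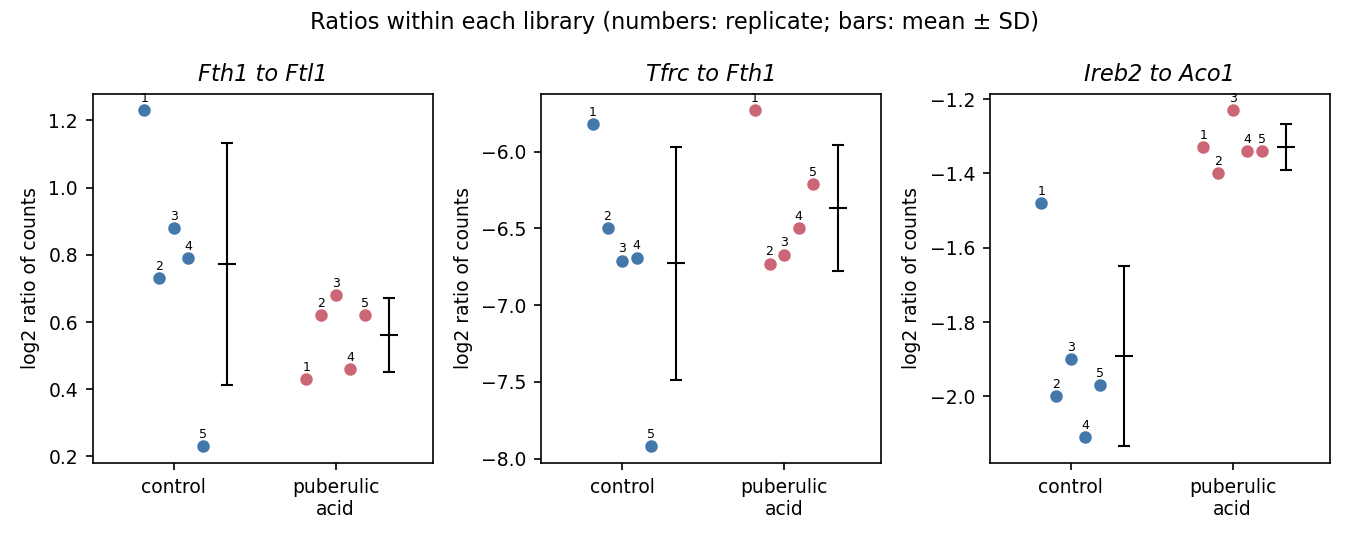
Log2 ratio of counts (vertical axes, which do not start at 0) of 3 gene pairs in each library, with replicate numbers and mean ± SD. The Ireb2 to Aco1 ratio is higher in all treated libraries, and the other 2 ratios overlap, with control replicates 1 and 5 at opposite ends.

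Hmox1 (ENSMUSG00000005413), which splits heme into biliverdin, carbon monoxide and iron, rose most among the tested iron genes. It was at 22.3, 30.4, 27, 36.6 and 52.2 CPM in controls and at 79.4, 154, 134, 175 and 112 CPM with puberulic acid. Every treated library was above every control, with puberulic acid replicate 1 nearest. The rise was 3.89-fold (log2 fold change 1.96 ± 0.25, SE, edgeR adjusted p = 2.87e-05), and it was called in every alternative run, including total counts (2.46).

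Macrophages, which degrade heme from red cells, are known for high Hmox1 and ferroportin. Of 10 macrophage markers 8 were called higher and none lower, and their summed CPM was 102 to 240 in controls and 251.6 to 871.3 in the treated group. Puberulic acid replicate 1 was the lowest treated library both for this sum and for Hmox1, but the highest for Slc40a1. Cd163, the hemoglobin scavenger receptor of macrophages, was near 0 in both groups (at most 0.446 CPM). The part of these markers in the Hmox1 and Slc40a1 levels was not tested.

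Hamp (ENSMUSG00000050440) had 0 counts in all 5 controls and 4, 33, 24, 22 and 19 counts in puberulic acid replicates 1 to 5, or 0.149, 1.41, 1.02, 0.896 and 0.611 CPM. Each treated library had counts and no control did (exact two-sided permutation p = 0.00794, the smallest possible). It was too low for the count filter, and a fit with no filter gave an edgeR adjusted p of 0.000206 over 30782 genes. Against the limit that 3 counts over the 5 controls allow (0.0359 CPM), the pooled treated level of 0.786 CPM was 21.9-fold higher. This value is not a lower bound, because the limit covers counting error only and leaves out the spread between libraries. Puberulic acid replicate 1, at 0.149 CPM, was below the 3-count floor of each control library taken alone (0.158 to 0.195 CPM). The level is low: with 1.99 CPM per kb of transcript against 10.4 for Tfrc, it was the lowest of the set. The paralog Hamp2 had no counts in any library.

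Hepatocytes are the main source of hepcidin, so their markers were read beside Hamp. Of 7 hepatocyte markers tested, 2 were called higher and 4 lower, beside 34.2% and 31.1% of all genes tested, and their summed CPM ran from 1759 to 2326 in the control group but from 402 to 669 in the treated group, a sum in which Cyp2e1, which kidney also expresses, was the largest term in the controls (1801 ± 283 CPM, SD, n = 5). Albumin (Alb) was at 3.65 to 6.24 CPM in controls and 2.40 to 4.94 CPM with puberulic acid and was called lower (edgeR adjusted p = 0.0344), but not with total counts. The transport protein gene Ttr and the apolipoprotein gene Apoa2 were called lower too, at log2 fold changes of -2.71 and -1.39. In controls Ttr was far above Alb, at 115 ± 45.6 against 5.30 ± 1.04 CPM (mean ± SD, 5 libraries). Fga, a fibrinogen chain, was higher at 166 ± 44.7 CPM against 15.7 ± 3.89 CPM (mean ± SD, 5 libraries per group). Serpina1a was called higher too, at 92.1 ± 24.6 CPM against 54.6 ± 19.5 CPM (mean ± SD, 5 libraries per group). Which cells held these transcripts was not tested. Tat had no counts in the controls and 0.128 to 0.530 CPM with puberulic acid.

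The Hamp promoter is shown because Hamp is the one iron gene with no counts in controls, and hepcidin is known for control by bone morphogenetic protein (BMP) and STAT signals at this promoter. RefSeq windows were found for 6 of the 10 iron genes. In the 250 bases before the start, GGCGCC, the core of the BMP response element, occurred in 9.59% of 32851 RefSeq windows (GRCm38.p6, either strand), and TTCTTGGAA, a STAT site, in 0.365%. Hamp held 1 of each, beginning at -109 and -97 from the start, and both are in capitals. GGCGCC was also in 1 window of Tfrc, at -89, and neither sequence was in the windows of Aco1, Ftl1, Ireb2 and Fth1. Of 2 further motifs searched on both strands, the hypoxia response core ACGTG (16.6% of windows) was in 1 window of Tfrc, at -228, and the antioxidant response core TGACNNNGC (10.2%) in none of the windows of the 6 genes. A match of letters is not evidence of binding.
Hamp promoter, chr7:30944030-30944179, minus strand, GRCm38.p6: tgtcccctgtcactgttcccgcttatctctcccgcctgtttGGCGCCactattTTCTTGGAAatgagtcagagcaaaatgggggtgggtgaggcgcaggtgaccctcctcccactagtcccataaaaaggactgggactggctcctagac

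Of 12 genes of hepcidin control, 9 were tested. With TMM 4 were called higher and 2 lower, where 34.2% and 31.1% of all genes tested were, and with total counts 7 were called higher and 0 lower, against 56.4% and 15.5%. Erfe, an erythroid hormone known to lower hepcidin, was at 0 to 0.475 CPM in controls and rose to 0.611 to 2.30 CPM, and Neo1, a receptor that binds the BMP co-receptor hemojuvelin, rose from 31.5 ± 1.74 to 58.9 ± 8.35 CPM (mean ± SD, 5 libraries per group). The BMP target genes did not share a direction. Atoh8 and Smad6 fell by 1.14 and 0.37 on the log2 scale, but with total counts Smad6 was at 0.14 and neither was called. Smad7, an inhibitor of the pathway, rose by a log2 fold change of 0.58 (edgeR adjusted p = 4.84e-05), and by 1.09 with total counts. Id1 was at 0.29 and not called, but was called higher with total counts (0.80, edgeR adjusted p = 0.000194). Bmp6, the main iron-regulated ligand, was at 51.0 ± 14.2 and 51.8 ± 11.4 CPM (mean ± SD, 5 libraries per group, edgeR adjusted p = 0.925), but was called higher with total counts (log2 fold change 0.53, edgeR adjusted p = 0.0216), close to the median gene under that scaling.

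Per kb of the longest principal transcript, the controls ordered the set as Fth1 (3880 ± 305 CPM per kb), Ftl1 (3610 ± 967), Aco1 (89.7 ± 7.91), Fbxl5 (23.9 ± 2.41), Slc11a2 (22.3 ± 4.08), Hmox1 (21.5 ± 7.39), Ireb2 (16.2 ± 3.25), Slc40a1 (14.5 ± 3.43), Tfrc (12.2 ± 4.94) and Hamp (0), with SD and n = 5. Fth1 is the one gene of the set with 2 principal transcripts: with the shorter, of 929 bases in place of 1494, its control level was 6250 ± 491 CPM per kb (SD, n = 5). The control ranges of the ferritins overlapped with the longer transcript and were apart with the shorter (5480 to 6650 for Fth1 and 2250 to 4950 for Ftl1), so their distance depends on the transcript. Neighbours in the order from Fbxl5 to Tfrc had overlapping ranges. With puberulic acid, Hmox1 was at 83.5 ± 23.6 CPM per kb and Aco1 at 39.9 ± 4.87 (SD, n = 5), so that Hmox1 stood above Aco1.

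The genes with the pattern nearest to Tfrc, by root mean square difference of control-centred log2(CPM + 1) over the 10 libraries among 9492 genes, were Hsd11b1 (0.23), Pcdh17 (0.24) and Crbn (0.29). Nearest to Hmox1 were Sphk1 (0.24), Plp2 (0.25) and Pdpn (0.26). The genes were chosen for their likeness over these same libraries, so their shared pattern is a description.

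The control libraries differed among themselves in these genes. Control replicate 5 was the lowest control for Tfrc (23.2 CPM) and the highest for Ftl1 (4791 CPM), Slc40a1 (68.6 CPM) and Hmox1 (52.2 CPM), while control replicate 1 was the highest for Tfrc (90.1 CPM) and Ireb2 (126 CPM) and the lowest for Ftl1 (2176 CPM) and Hmox1 (22.3 CPM). The summed erythroid markers were also highest in control replicate 5, at 3220 CPM against 988 to 2171 CPM in the other controls. Their part in these differences was not tested.

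A wider list of 85 iron and heme genes was read in the same fit. Of the 78 tested, 18 were called higher and 43 lower, against backgrounds of 34.2% and 31.1%. With total counts 35 were called higher and 29 lower, against 56.4% and 15.5%. The 2 lists with the most falls were heme synthesis and the mitochondrial iron and iron-sulfur cluster genes.

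All 9 heme synthesis genes fell, from Alas1, the first and rate-limiting enzyme outside the red cell lineage, to Fech, which inserts iron. The median log2 fold change of the 9 was -1.13, and -0.63 with total counts, where all 9 were below 0 and 8 were called lower. Under that scaling 15.5% of all genes tested were called lower. Alas2, the erythroid form of the first enzyme, fell most, from 13.2 ± 6.18 to 1.13 ± 0.701 CPM (mean ± SD, 5 libraries per group, log2 fold change -3.55 ± 0.52, SE, edgeR adjusted p = 7.58e-05). Cpox, a mitochondrial enzyme late in the path, fell from 125 ± 12 to 44.4 ± 3.73 CPM (mean ± SD, 5 libraries per group). Alas1 fell from 156 ± 49.6 to 79.6 ± 11.2 CPM and Fech from 159 ± 26.6 to 81.7 ± 13.5 CPM (mean ± SD, 5 libraries per group).

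The fall of Alas2 went with red cell transcripts. Of 6 erythroid genes tested 5 were called lower and 1, Epb42, higher, and the summed CPM was 988 to 3220 in the control libraries and 29.7 to 266 in the treated ones. Hbb-bs, a beta globin, fell from 722 ± 358 to 64.0 ± 40.0 CPM (mean ± SD, 5 libraries per group, edgeR adjusted p = 9.63e-05). The part of the red cell transcripts in the Alas2 value was not tested. Cpox was 2.82-fold lower. All 10 proximal tubule markers also fell, from a summed 37440 to 48600 CPM to 5862 to 7769 CPM, and their part in these falls was not tested.

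**Figure D4:**
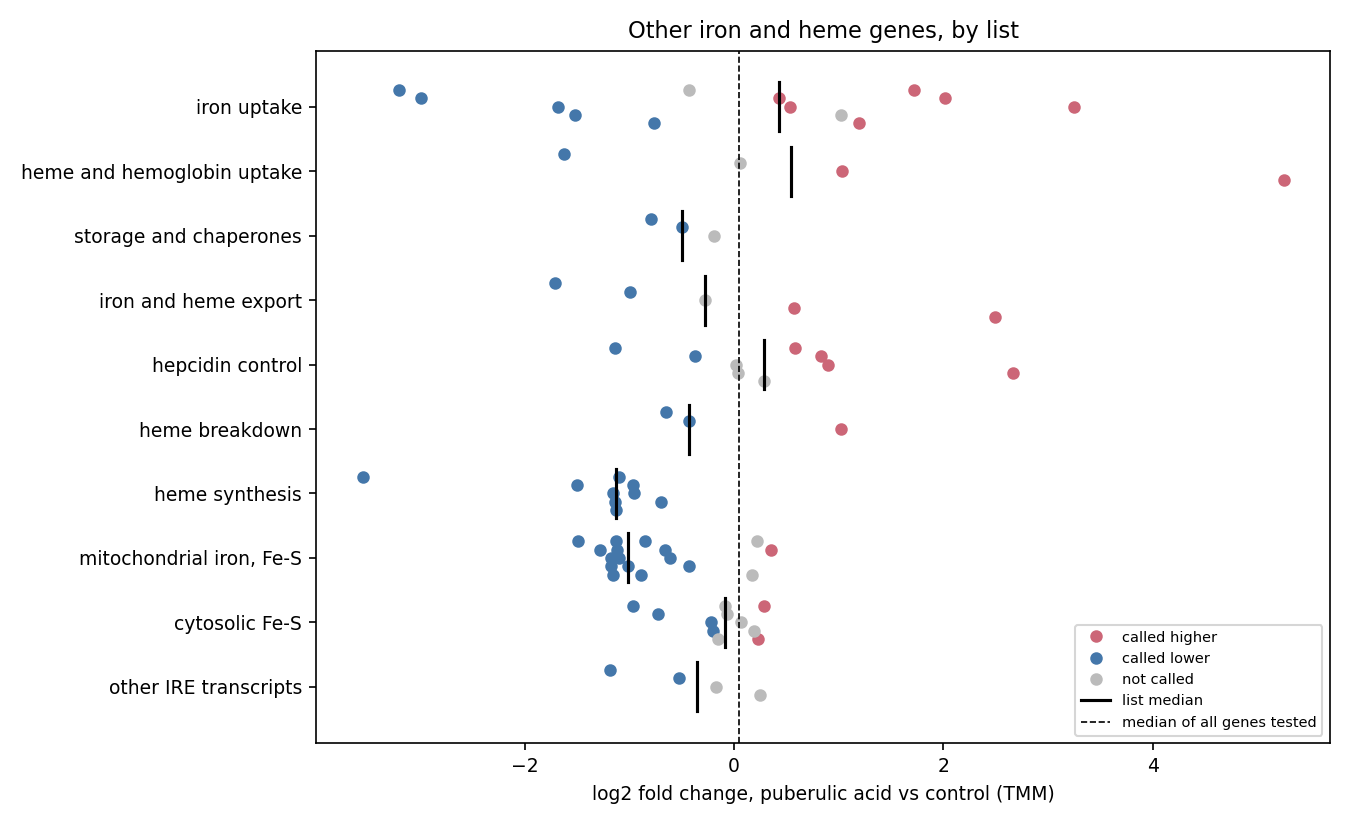
Log2 fold change (horizontal axis, TMM scaling) of 78 other iron and heme genes in 10 lists, coloured by edgeR call, with list medians (black bars) and the median of all genes tested (dashed). All 9 heme synthesis genes and 14 of 17 mitochondrial iron genes lie on the lower side as called genes.

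Of 17 genes for mitochondrial iron import and iron-sulfur clusters, 14 fell, 1 rose and 2 were not called, with a median log2 fold change of -1.01, and -0.50 with total counts. Among all genes tested 34.2% were called higher and 31.1% lower. With total counts 3 of the 17 were called higher and 11 lower, against 56.4% and 15.5%. Abcb8, a transporter, was 2.81-fold lower and Iba57, a late assembly factor, 2.44-fold lower. The scaffold Iscu fell from 232 ± 20.6 to 109 ± 8.51 CPM (mean ± SD, 5 libraries per group). Slc25a37, mitoferrin-1, rose from 29.1 ± 2.74 to 37.1 ± 3.52 CPM (mean ± SD, 5 libraries per group, edgeR adjusted p = 0.00614).

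The 11 cytosolic iron-sulfur genes split into 2 higher (Glrx3, at a log2 fold change of 0.29, and Nubp1, at 0.23), 4 lower and 5 not called, beside 34.2% higher and 31.1% lower among all genes tested. Ciao1 and Ciao3 fell by 0.97 and 0.73 on the log2 scale, but with total counts Ciao3 was at -0.22 and not called (edgeR adjusted p = 0.0599). The remaining genes called lower, Nubp2 (-0.20) and Mms19 (-0.22), turned to called higher with total counts. Their values were then 0.31 and 0.29 (edgeR adjusted p = 0.0022 and 0.0107). Under that scaling 9 of the 11 were called higher and 1 lower, against 56.4% and 15.5% of all genes tested.

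Among 13 uptake genes 6 were called higher and 5 lower, beside backgrounds of 34.2% and 31.1%, and with total counts 7 and 4 were, beside 56.4% and 15.5%. The endocytic receptors of the proximal tubule, Lrp2 (megalin) and Cubn (cubilin), fell from 1332 ± 144 to 145 ± 58.7 CPM and from 382 ± 56.1 to 48.0 ± 12.7 CPM (mean ± SD, 5 libraries per group). The metalloreductase gene Steap1 rose from 2.96 ± 1.27 to 28.1 ± 4.57 CPM and Cybrd1, a ferric reductase, from 1.27 ± 0.286 to 5.14 ± 1.22 CPM (mean ± SD, 5 libraries per group). Of 4 tested genes for heme and hemoglobin uptake, Hp, haptoglobin, rose from 0.191 to 0.422 CPM in controls to 52.7 CPM in puberulic acid replicate 3 and 0.891 to 6.32 CPM in the other 4 treated libraries. The heme and folate transporter Slc46a1 fell by 1.63 on the log2 scale.

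Of 5 tested genes on the export list 2 were called higher and 2 lower, with TMM and also with total counts. The shares of all genes tested were 34.2% and 31.1% with TMM, and 56.4% and 15.5% with total counts. Cp, the ferroxidase ceruloplasmin that works with ferroportin, rose from 28.2 ± 14.2 to 158 ± 32.9 CPM (mean ± SD, 5 libraries per group). Flvcr2 fell from 19.4 ± 2.29 to 5.91 ± 1.43 CPM (mean ± SD, 5 libraries per group). Its place on the list does not show that Flvcr2 carries iron or heme out of cells. In heme breakdown, Blvrb rose by a log2 fold change of 1.02, while Hmox2, the constitutive heme oxygenase, fell by 0.65 with TMM and was at -0.14 with total counts. Ncoa4, the receptor that sends ferritin to lysosomes, fell by 0.79 (edgeR adjusted p = 3.06e-05). Of 4 other transcripts listed for an iron-responsive element, 0 were called higher and 2 lower with TMM, beside 34.2% and 31.1% of all genes tested, and 2 higher and 1 lower with total counts, beside 56.4% and 15.5%. Epas1, a hypoxia-inducible factor, fell by 0.53 with TMM and was at -0.02 with total counts.

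**Figure D5:**
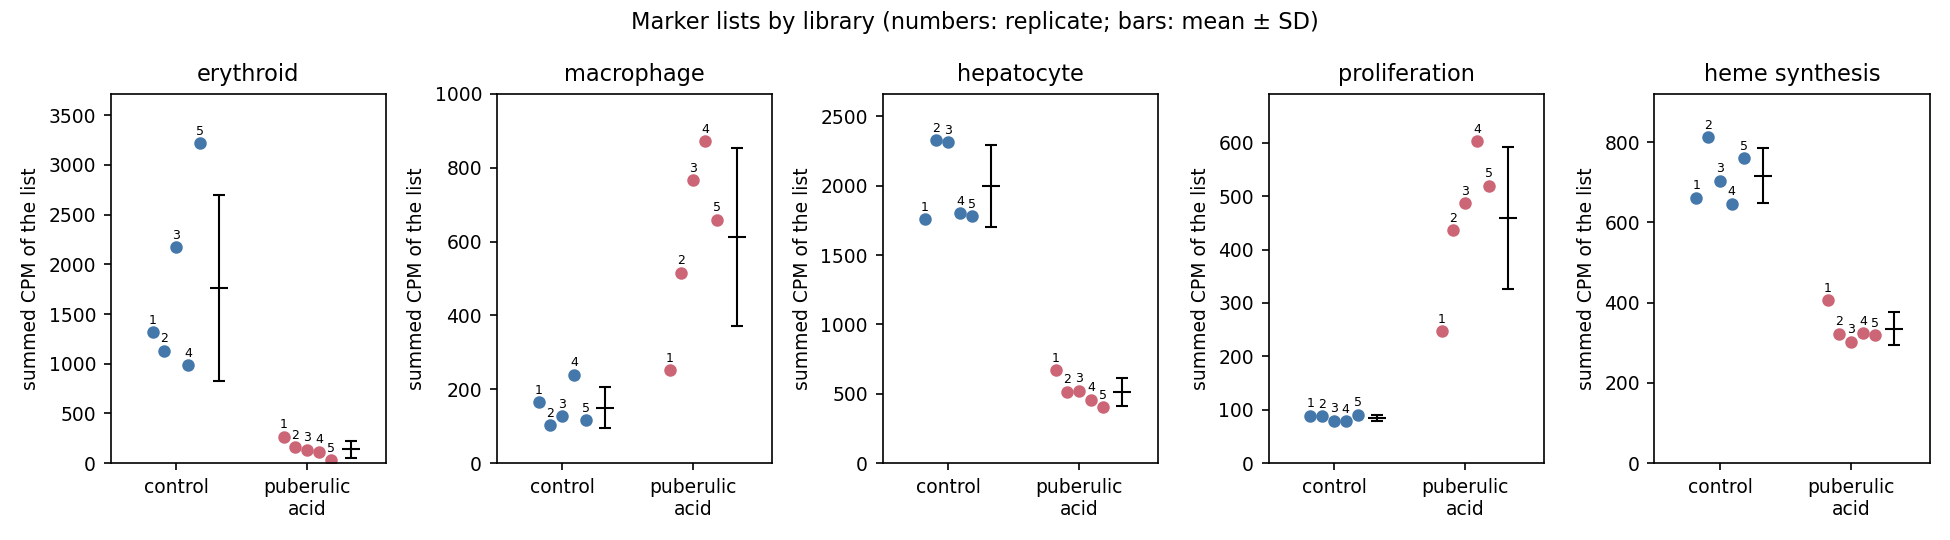
Summed CPM (vertical axis, linear, from 0) of 5 gene lists in each library, with replicate numbers and mean ± SD. Erythroid, hepatocyte and heme synthesis sums are lower, and macrophage and proliferation sums higher, in all 5 puberulic acid libraries than in all 5 controls.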

How the data were processed

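The authors' deposited table holds estimated counts, not all of them whole. Per the submitters' processing notes, fastp 0.22.0, FastQC 0.12.1, MultiQC 1.28, Salmon 1.10.3, DESeq2 and GRCm39 were used, with no role given. The annotation is not given in the sources used here. How reads shared by near-identical genes were divided is not given either, which touches the ferritins. Per the labels, kits were strand-specific and RIN was above 7.5.

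Of 20 sample columns, 10 were used and 10, whose names show no lot, were not. Symbols were matched for 51344 of 55822 identifiers. Counts were rounded, filtered with filterByExpr and scaled with TMM, and only the control and puberulic acid samples were fitted (edgeR 4.0.16, limma 3.58.1, R 4.3.3, robust off). Standard errors are the log2 fold change over the square root of F. On simulated tables with 200 changed genes, 85% of 2-fold and 99.7% of 4-fold changes were recovered. These tables had the same dispersion for all genes, changes balanced up and down, and no changed genes with low counts. They therefore do not cover a difference as broad as the one here, the choice of scaling, or counts as low as those of Hamp. Ratios and Hamp used exact permutation tests (scipy 1.17.1), with adjustment over the 3 ratios. A floor of 3 counts is 0.0964 to 0.195 CPM per library and covers counting error only.

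All 10 iron genes are named. Some genes of the other lists are not reported here by name. From the other lists, called genes with the largest changes were named, 1 in each direction, or 2 for lists of over 8 genes; some others were added to account for a list. The members and lists were chosen with earlier results of these data known. Alternatives were RLE, upper-quartile and total-count scaling, other filters, DESeq2 1.42.0, a robust fit, removal of mitochondrial and the 10 most abundant genes, added ferritin copies, a shorter principal transcript for levels per kb (chosen after seeing the data), a pseudocount, a replicate block, and fits with libraries left out.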

Additional observations from a re-analysis of the deposited data

Results flagged for a closer look

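Within each group of 5, values were searched for a sample whose gap to its neighbour exceeded 0.71 of the group's range. Of 93 groups of values 12 held one, where chance gives about 4.7 for independent values, which these are not. Puberulic acid replicate 1 was the highest of its group for Slc11a2 (58.8 against 29.8 to 34.1 CPM, gap 0.851), Slc40a1 (80.2 against 56.0 to 62.8 CPM, gap 0.721), Ireb2 (73.1 against 56.6 to 58.8 CPM, gap 0.866) and Ncoa4 (gap 0.801). It was also highest for the summed proximal tubule (gap 0.771), loop and distal (gap 0.726) and heme synthesis lists (gap 0.787), and lowest for Blvrb (29.6 against 42.5 to 46.2 CPM, gap 0.775). In Slc11a2, Ireb2, Ncoa4 and Blvrb it lay toward the controls, and in Slc40a1 away from them.

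Control replicate 5 was the highest control for Slc40a1 (68.6 against 39.1 to 47.7 CPM, gap 0.71), and control replicate 2 for Glrx3 (91.1 against 85.3 to 86.1 CPM, gap 0.862). Puberulic acid replicate 3 was highest for Hp (52.7 against 0.891 to 6.32 CPM, gap 0.895) and replicate 2 for Erfe (2.30 against 0.611 to 0.937 CPM, gap 0.807).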

How the results depend on the processing

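Aco1 and Hmox1 kept their direction and their call in all 21 alternatives. Total-count scaling moved the members called lower from 4 to 1 and the other iron genes called higher from 18 to 35, with 78.4% of all calls higher against 52.4%. It turned Tfrc to 0.28, Fth1 to 0.03 and Ftl1 to 0.19. Leaving out 1 library gave 1 to 3 members called higher, 4 to 5 called lower and 15 to 20 other iron genes called higher; Slc40a1 left the calls in 8 of these fits, and Hamp passed the filter in 6. Fbxl5, near 0, ran from -0.05 to 0.04 when 1 library was left out: it turned to -0.02, -0.03, -0.03, -0.05 and -0.05 without control replicates 3, 4 and 5 and puberulic acid replicates 1 and 4, and to -0.04 without control replicates 1 and 5 and puberulic acid replicate 1 together, a setting chosen after seeing the data, under which Tfrc was called at -0.43 and Ftl1 at -0.33. The Fth1 to Ftl1 difference ran from -0.34 to -0.09 when 1 library was left out. Mice were assigned to 1 group each, so replicate numbers pair no animals, and deviations of equal numbers correlated from -0.168 to 0.0199. With the replicate block 10325 genes were called, and the sign-flip test, which cannot go below 0.0625, gave Ireb2 to Aco1 a difference of 0.56 (exact, adjusted p = 0.188) and Hamp 0.816 CPM (exact p = 0.0625). Hamp's few counts limit its precision.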
